A study of Homo sapiens with 5 samples.

Results

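MCAM and 9 other adhesion molecules of the immunoglobulin family were followed in Rh41 cells that had lost most of their H3F3A mRNA. The set comprised MCAM, ALCAM, BCAM, L1CAM, NCAM1, NRCAM, CHL1, CADM1, JAM3 and NECTIN2, which are 10 of 43714 gene rows, each found by its exact symbol. Rh41 is an established human cell line of alveolar rhabdomyosarcoma (ARMS), labelled as fusion-positive (FP-RMS), a sarcoma whose cells resemble muscle precursors. All libraries came from this line, transfected with Lipofectamine RNAiMAX and a scrambled siRNA (siscr, n = 2 libraries, replicates 1 and 3) or an siRNA against H3F3A (siH3F3A, n = 3 libraries, replicates 1, 2 and 3), with RNA collected after 48 hours. H3F3A is a gene for the histone variant H3.3, and the series asks what H3.3 does in metastasis of this tumour. No label says that the libraries came from separate cultures, and the p-values may thus reflect technical spread alone. MCAM was placed in the set with its fall in these libraries already known.

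Adhesion molecules of the immunoglobulin family are membrane proteins whose outer part is a row of immunoglobulin-like domains. Many bind the same molecule on a neighbouring cell, others bind a relative, an integrin or a laminin of the basement membrane, and their cytoplasmic tails attach to spectrin, ankyrins, ezrin-family proteins or PDZ scaffolds. MCAM, ALCAM and BCAM share an arrangement of immunoglobulin domains, and L1CAM, NRCAM and CHL1 form the L1 family known from growing axons. NCAM1 is an adhesion molecule of neurons and of myoblasts and is often stained in rhabdomyosarcoma. JAM3 and the nectins act at cell junctions, and CADM1 is a nectin-like molecule.

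MCAM, L1CAM and NECTIN2 were the members that fell after H3F3A siRNA, so the sequences before their annotated starts are shown. RefSeq promoters were found for 7 of the 10 genes by symbol (build GRCh38.p14). The 250 bases before the first listed start are printed 5′ to 3′ on the gene's strand, at chr11:119317131-119317380 (minus strand) for MCAM, chrX:153875945-153876194 (minus strand) for L1CAM and chr19:44846047-44846296 (plus strand) for NECTIN2. Capitals mark the GC box GGGCGG on either strand (GGGCGG or CCGCCC, overlaps counted) and the cyclic AMP response element TGACGTCA, which reads the same on both strands.
MCAM: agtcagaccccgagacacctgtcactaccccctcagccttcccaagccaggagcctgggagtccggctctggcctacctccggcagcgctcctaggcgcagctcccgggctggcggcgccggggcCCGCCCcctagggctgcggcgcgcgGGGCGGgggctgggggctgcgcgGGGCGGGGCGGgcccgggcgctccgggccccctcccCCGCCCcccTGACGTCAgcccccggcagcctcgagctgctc
L1CAM: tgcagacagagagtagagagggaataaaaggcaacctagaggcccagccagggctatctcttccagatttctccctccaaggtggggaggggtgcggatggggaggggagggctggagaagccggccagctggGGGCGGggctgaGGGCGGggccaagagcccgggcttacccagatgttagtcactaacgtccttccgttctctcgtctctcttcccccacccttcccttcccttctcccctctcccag
NECTIN2: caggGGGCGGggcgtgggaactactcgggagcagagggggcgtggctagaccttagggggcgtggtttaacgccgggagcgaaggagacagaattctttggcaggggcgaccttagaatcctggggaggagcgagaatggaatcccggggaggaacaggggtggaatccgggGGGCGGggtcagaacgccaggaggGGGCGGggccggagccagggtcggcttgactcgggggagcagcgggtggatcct
The MCAM window held 5 GC boxes and 1 TGACGTCA, the L1CAM window 2 GC boxes and the NECTIN2 window 3. Of 27305 promoters of the same length, 42.3% held a GC box and 1.77% held TGACGTCA. None of the 3 windows held TATAAA in either orientation, which 11.1% of promoters did. G and C made up 79.6% of the MCAM window, more than in 96.3% of promoters. They made up 62.4% of the L1CAM window and 67.6% of the NECTIN2 window, with a median of 58% over all promoters. GC boxes were not limited to called members. The window before the first listed start held 5 for BCAM, 2 for NRCAM, 1 for ALCAM and 0 for CHL1. G and C made up 76%, 78.4%, 68.8% and 63.2% of these windows. The files do not show which start Rh41 used, so a match is a description of the sequence.

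The libraries held 28493573 to 30705963 reads assigned to genes. H3F3A stood at 294 and 269 CPM (read counts per unit of sequencing depth, scaled by edgeR's TMM method) in the scrambled libraries and at 9.38, 10.5 and 8.54 CPM after H3F3A siRNA, which is 3.36% of the scrambled level (edgeR adjusted p = 9.04e-21 for a log2 fold change of -4.89). H3F3B, the other gene for H3.3, was at 821 ± 25.6 CPM (SD, n = 2) and 819 ± 28 CPM (SD, n = 3). The muscle-lineage genes MYOD1, MYOG, DES and CHRNA1 stood at 1340, 240, 835 and 947 CPM in scrambled libraries, while MYF5 and MYF6 of the same marker list were near 0 (0 and 0.0168 CPM). Of 10 tested genes of that list the receptor kinase gene FGFR4 fell (log2 fold change -0.50, adjusted p = 0.00257). The transcription factor gene TFAP2B rose (0.49, adjusted p = 0.00133). Over all tested genes 2.69% were called lower and 0.504% higher. In the list 7 genes were below 0 and 3 above. MYOD1, DES and CDH15 were at -0.29, -0.31 and -0.33 and not called (adjusted p = 0.0654, 0.0501 and 0.0529). FGFR4 and TFAP2B were also called with the GC offset described next, at -0.29 and 0.47. MYOD1, DES and CDH15 were then at -0.05, -0.11 and -0.08. Scrambled replicate 1 stood apart: GC-rich transcripts read higher in it, by a slope of 0.144 log2 CPM per 10 points of transcript GC. The slope was -0.0071 for the other scrambled library, and it lay between -0.0585 and -0.0385 after H3F3A siRNA. Results are therefore also given with each library's GC trend removed by an offset.

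MCAM was the most abundant of the 10 genes, and their scrambled means ran from 0.0242 to 212 CPM per kilobase. Levels between genes are given as CPM per kilobase of the principal transcript in GENCODE 29. MCAM stood at 221 and 203 CPM per kilobase in the scrambled libraries and exceeded 98% of the tested genes with a length. NECTIN2 followed at 99.9 and 81.1 and L1CAM at 86.8 and 74.1 CPM per kilobase. The ranges of these neighbours overlapped between libraries, but NECTIN2 lay above L1CAM within every library. JAM3 was at 65.5 and 71 CPM per kilobase, NCAM1 at 43.5 and 43 and BCAM at 37.1 and 30.8, each below the range of the gene before it. NRCAM, at 2.58 and 3.24 CPM per kilobase, and ALCAM, at 2.31 and 2.81, overlapped each other and lay far below BCAM. CHL1 had 12 and 18 counts in the scrambled libraries and 9, 19 and 10 after H3F3A siRNA, and CADM1 had 4 and 2 against 7, 1 and 10. Both were thus at the edge of detection, and CADM1 was not tested.

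**Figure D1:**
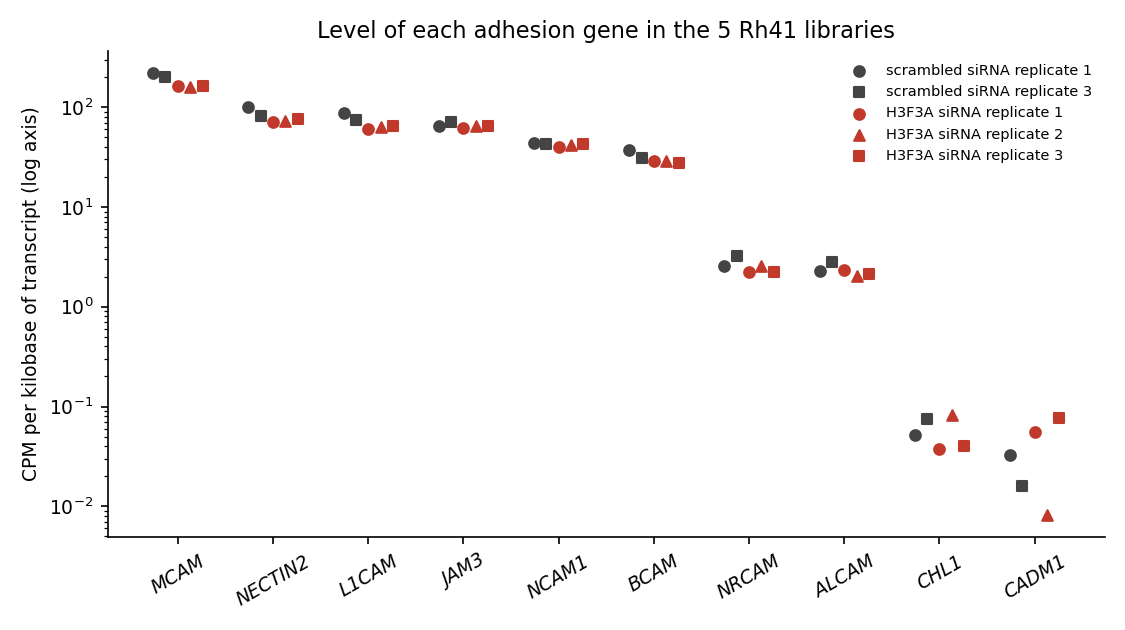
CPM per kilobase of transcript (log axis) of the 10 genes, ordered by their scrambled mean, with 1 point for each library (grey for scrambled siRNA, red for H3F3A siRNA, marker shape for replicate). MCAM lies highest, at 221 and 203 in the scrambled libraries, and CHL1 and CADM1 lie below 0.1 in all 5.

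The order depends on transcript lengths and on overlapping genes. With the longest transcript of each gene MCAM stood at 144 CPM per kilobase and L1CAM at 80.5, then above NECTIN2 at 77.5. The 3′ end of JAM3 overlaps that of NCAPD3, a condensin subunit gene on the opposite strand, by 465 exonic bases, and reads there were left out as ambiguous. The unstranded column held 52.7% to 58% of the JAM3 reads in the sum of the stranded columns. That sum also takes in reads of NCAPD3 and gave 120 ± 2.76 CPM per kilobase (SD, n = 2) for JAM3, above NECTIN2, so the level of JAM3 lies between 68.2 and 120. MCAM shares 509 exonic bases with CBL on the opposite strand and kept 92.5% to 94.9% of its reads in the unstranded column. NCAM1 kept 89.9% to 90.5%, and the other members with over 100 counts kept at least 99.8%.

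After H3F3A siRNA MCAM, L1CAM and NECTIN2 fell and no member rose. These are 3 of 9 members tested, against 2.69% of 15859 genes called lower, 0.504% called higher and 3.2% called in all. A gene was called where the adjusted p of edgeR's quasi-likelihood test was below 0.05. The fold changes of all 9 were below 0, with a median log2 fold change of -0.27, while 48.6% of all tested genes were below 0 and their median was 0.01. The 6 members not called were ALCAM, BCAM, NCAM1, NRCAM, CHL1 and JAM3. In 7 of the 9 members both scrambled libraries lay above all 3 H3F3A siRNA libraries, which held for 17.1% of all tested genes. The reverse held for 16% and either for 33.1%. MCAM is included in these counts and in the median, although its fall was known when the set was made. Whether the fall is shared can be read only from the other members, of which L1CAM and NECTIN2 were called.

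MCAM, the melanoma cell adhesion molecule, which binds laminins and is linked to cell migration, was at 732 and 671 CPM in the scrambled libraries and at 537, 527 and 538 CPM after H3F3A siRNA. The H3F3A siRNA libraries lay close together and well below both scrambled ones. MCAM fell 1.31-fold, from 701 ± 42.7 to 534 ± 6.46 CPM, to 76.2% of its scrambled level (log2 fold change -0.39, 95% interval -0.55 to -0.24, edgeR adjusted p = 0.0055). With the GC offset its log2 fold change was -0.32 (adjusted p = 0.00344). When H3F3A siRNA replicate 1 was left out MCAM was no longer called, at -0.39 (adjusted p = 0.0848), and 15 of 15656 genes were called in all. In bulk RNA, a lower level in every cell and fewer cells with a high level cannot be told apart.

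BCAM and ALCAM, the members built most like MCAM, were not called. BCAM, the Lutheran glycoprotein, a receptor for the laminin alpha 5 chain, was at 91.1 and 75.6 CPM in the scrambled libraries and at 70.1, 70.6 and 67.4 CPM after H3F3A siRNA. The groups did not overlap, but scrambled replicate 3 lay nearer to the H3F3A siRNA libraries than to scrambled replicate 1. Its log2 fold change was -0.27 (SE 0.0826, adjusted p = 0.0838), and -0.02 with the GC offset (95% interval -0.13 to 0.1). Without scrambled replicate 3 it was called, at -0.39 (adjusted p = 0.000532). ALCAM, which binds itself and the lymphocyte receptor CD6, was at 10.8 and 13.2 CPM and at 10.9, 9.48 and 9.97 CPM, so the groups overlapped. Its log2 fold change was -0.25 (adjusted p = 0.263), and -0.34 with the GC offset (adjusted p = 0.0969).

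Of the L1 family, L1CAM fell, NRCAM fell only in fits that took up the GC trend or the replicate number or left out scrambled replicate 1, and CHL1 was too scarce to judge. L1CAM, a homophilic molecule of growing axons that also binds integrins, was at 446 and 381 CPM in the scrambled libraries and at 314, 322 and 336 CPM after H3F3A siRNA. Scrambled replicate 3 lay nearer to H3F3A siRNA replicate 3 than to scrambled replicate 1. L1CAM fell 1.28-fold without overlap (log2 fold change -0.35, 95% interval -0.52 to -0.19, adjusted p = 0.0167). It was still called with the GC offset, at -0.21 (adjusted p = 0.0424). The L1CAM call was lost without scrambled replicate 1 (-0.24, adjusted p = 0.187), without H3F3A siRNA replicate 1 (-0.33, adjusted p = 0.17) and without H3F3A siRNA replicate 2 (-0.35, adjusted p = 0.0862). NRCAM, a relative of L1CAM at the nodes of Ranvier, was at 17.2 and 21.7 CPM and then at 14.8, 17 and 15 CPM. The lower scrambled library and the highest H3F3A siRNA library were almost level. Its log2 fold change was -0.32 (SE 0.106, adjusted p = 0.103), and with the GC offset it was -0.39 and called (adjusted p = 0.0371). NRCAM was also called without scrambled replicate 1, at -0.48 (adjusted p = 0.03), with the replicate number as a block (adjusted p = 0.0425), and it was at -0.14 without scrambled replicate 3 (adjusted p = 0.435). For CHL1 the 95% interval of the log2 fold change ran from -1.15 to 0.62.

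NCAM1, JAM3 and NECTIN2 serve contacts between neighbouring cells. NECTIN2 fell, NCAM1 and JAM3 were not called, and with the GC offset none of the 3 was called. NCAM1 was at 254 and 251 CPM in the scrambled libraries and at 232, 243 and 249 CPM after H3F3A siRNA, nearly level in all 5 libraries. Its log2 fold change was -0.06 (95% interval -0.22 to 0.09, adjusted p = 0.716), an interval that does not reach the value measured for MCAM, and -0.09 with the GC offset (adjusted p = 0.533). JAM3, a junctional molecule that helps myoblasts and leukocytes adhere, was at 256 and 278 CPM and at 240, 252 and 256 CPM. The lower scrambled library and the highest H3F3A siRNA library were again almost level. Its log2 fold change was -0.10 (95% interval -0.25 to 0.06, adjusted p = 0.541), and -0.05 in the sum of the stranded columns (adjusted p = 0.751), which was added once the values were known. With the GC offset JAM3 was at -0.11 (adjusted p = 0.392). NECTIN2, a partner of nectins and of the immune receptor CD226, was at 211 and 171 CPM in the scrambled libraries and at 151, 152 and 160 CPM after H3F3A siRNA. The groups did not overlap, but scrambled replicate 3 lay nearer to the H3F3A siRNA libraries than to scrambled replicate 1. NECTIN2 fell 1.24-fold (log2 fold change -0.31, 95% interval -0.48 to -0.14, adjusted p = 0.0446). This call was lost with the GC offset, where the log2 fold change was -0.08 (95% interval -0.19 to 0.03, adjusted p = 0.561). It was also lost when any library other than scrambled replicate 3 was left out (adjusted p from 0.0682 to 0.482), and NECTIN2 was called in 6 of 17 alternatives.

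**Figure D2:**
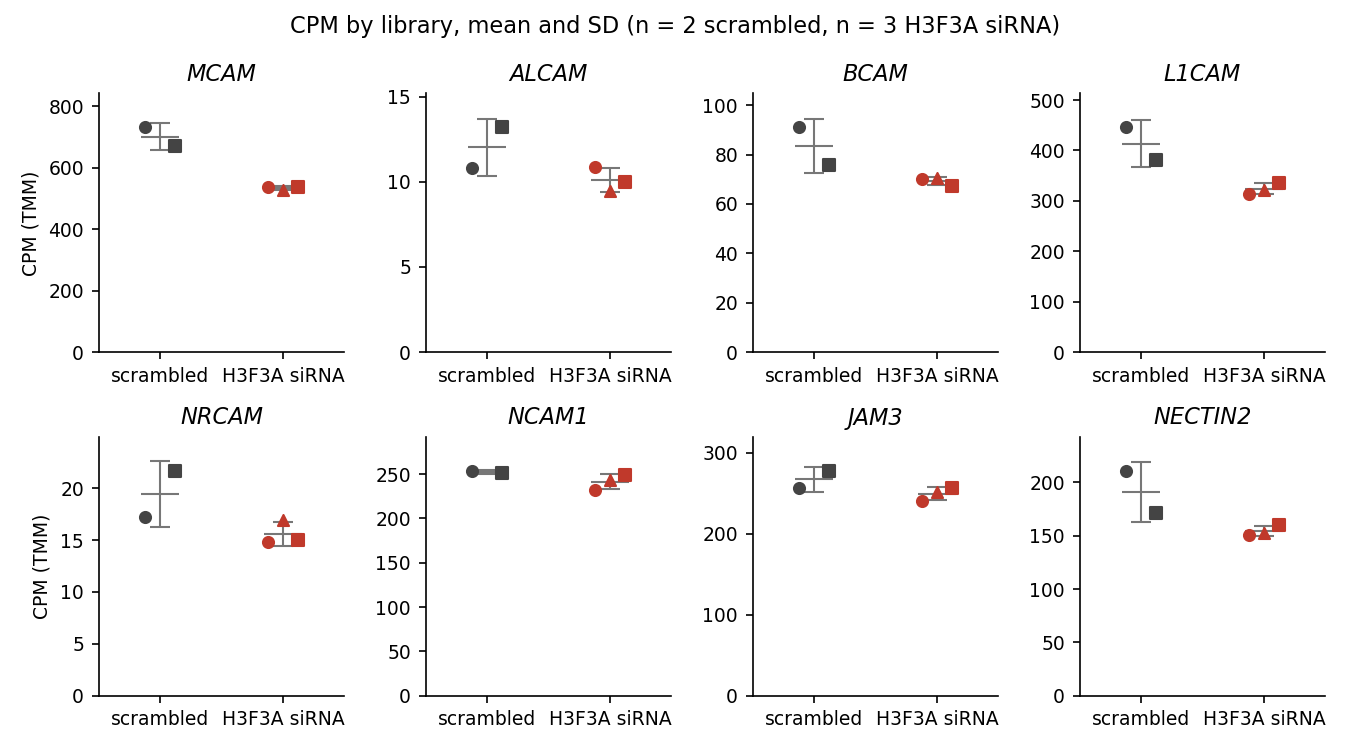
CPM of 8 members by library, with the mean and SD of each group (n = 2 scrambled, n = 3 H3F3A siRNA) on axes that start at 0. MCAM separates clearly. L1CAM separates too, but its scrambled replicate 3 lies nearer to H3F3A siRNA replicate 3 than to scrambled replicate 1. ALCAM overlaps, and NCAM1 is nearly level in all libraries.

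Transcript GC content moved with these results. Across all tested genes the median log2 fold change ran from 0.11 in the lowest of 10 GC classes to -0.23 in the highest. BCAM and NECTIN2, with 66.2% and 65% GC, belong to the highest class, in which 14.7% of genes were called. L1CAM has 60% GC, in a class with a median of -0.14, and MCAM has 56% GC, in a class with a median of -0.09. NRCAM and ALCAM, with 41.9% and 39.6% GC, belong to classes whose medians were above 0, at 0.07 and 0.09. With the GC offset MCAM, L1CAM and NRCAM were the members called, against 1.35% of all genes called lower and 0.542% called higher. In all, 1.89% of genes were called. All 9 fold changes stayed below 0 with a median of -0.21. MCAM is included here too, and of the other members L1CAM and NRCAM were called. The part of GC content in the unadjusted fold changes of single members was not tested.

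**Figure D3:**
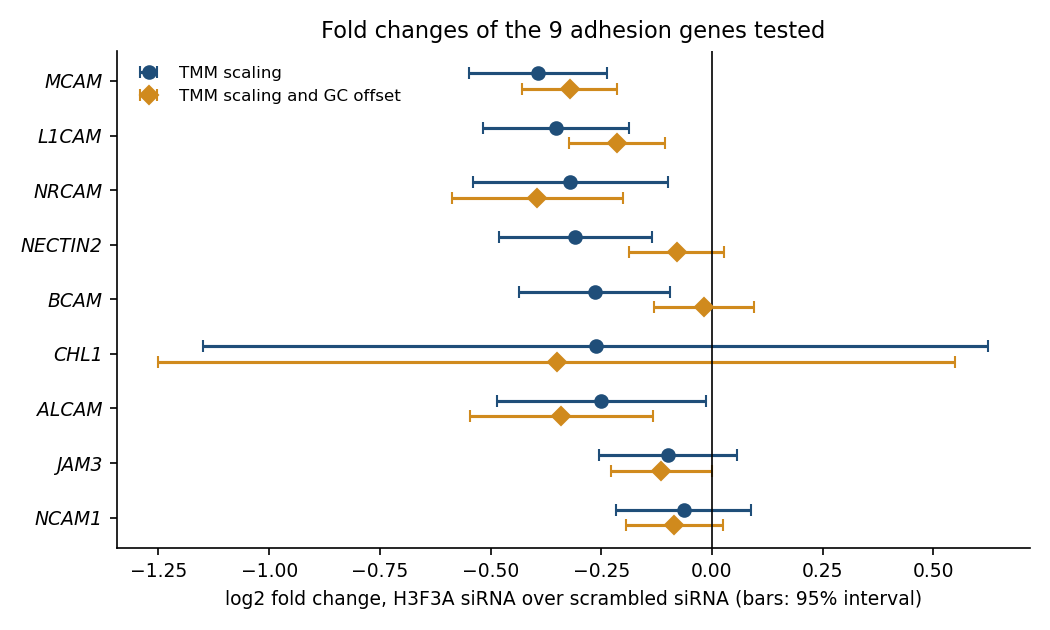
Log2 fold changes of the 9 members tested with 95% intervals, with TMM scaling (circles) and with the GC offset added (diamonds). The intervals of MCAM, L1CAM, NRCAM and ALCAM stay below 0 both ways, while those of BCAM and NECTIN2 reach above 0 with the offset.

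**Figure D4:**
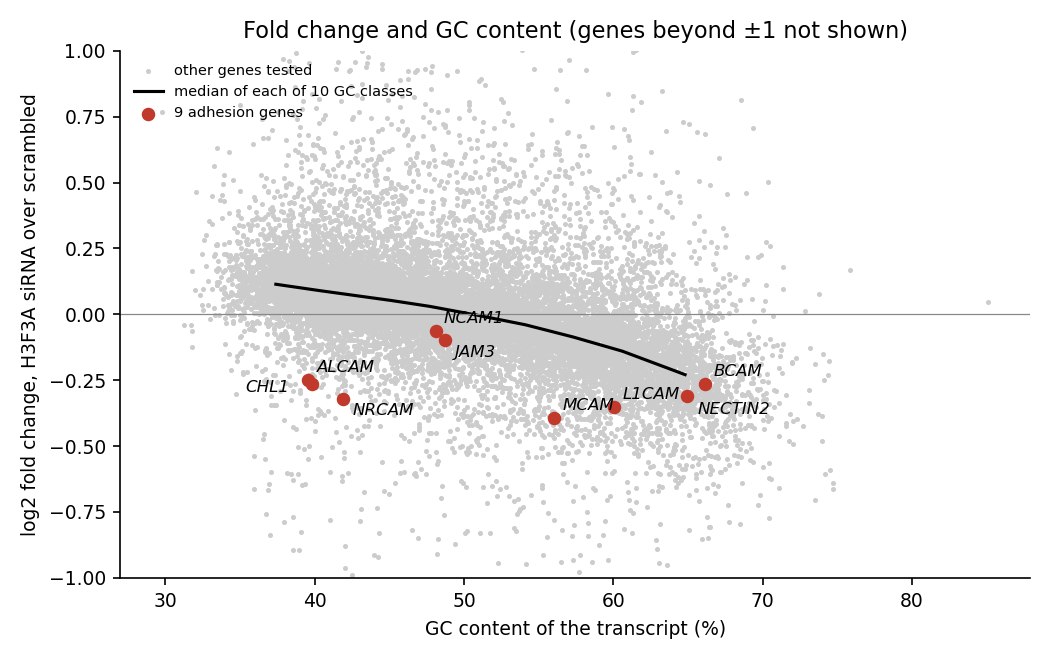
Log2 fold change against transcript GC content for the tested genes (grey, genes beyond 1 on either side not shown), the median of each of 10 GC classes (line) and the 9 members (red). MCAM, NRCAM and ALCAM lie well below the line, and BCAM and NECTIN2 lie near it.

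Whether MCAM moved more than another member was asked from the log2 ratio of MCAM to that member in each library. This was done for 8 members. The ratio of MCAM to NCAM1 was 1.53 and 1.42 log2 in the scrambled libraries and 1.21, 1.12 and 1.11 after H3F3A siRNA, a difference of -0.33. The ratio to JAM3 was 1.51 and 1.27 log2 and then 1.16, 1.06 and 1.07, a difference of -0.29. These ratios did not overlap between the groups, nor did that to BCAM, which differed by -0.13. An exact two-sided permutation test gave p = 0.1 for each of these 3 ratios, the smallest p that 2 against 3 libraries allow (adjusted p = 0.267 over the 8 members). The ratio to L1CAM was 0.71 and 0.82 log2 in the scrambled libraries and 0.77, 0.71 and 0.68 after H3F3A siRNA. These groups overlapped, as they did for NECTIN2, NRCAM, ALCAM and CHL1. All ratios were taken without the GC offset, and ratios with it were not tested. With the offset log2 fold changes were -0.32 for MCAM, -0.08 for NECTIN2, -0.02 for BCAM and -0.21 for L1CAM. They were -0.09 for NCAM1, -0.11 for JAM3, -0.34 for ALCAM, -0.35 for CHL1 and -0.39 for NRCAM. As a share of the summed CPM per kilobase of the 10 genes, MCAM made up 39.5% and 39.8% in the scrambled libraries and 37.8%, 36.7% and 36.6% after H3F3A siRNA.

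Over the 5 libraries, the genes whose centred log2 CPM profile was nearest to that of MCAM, among 9716 genes averaging 8 CPM or more, were VEGFA, LAMB3, PLAT, DRAXIN and GBX2. VEGFA is an angiogenic growth factor, LAMB3 a laminin chain, PLAT the tissue plasminogen activator, DRAXIN an axon guidance protein and GBX2 a homeobox transcription factor. Their root mean square difference from MCAM was 0.0148, 0.0168, 0.0225, 0.0242 and 0.029 log2, and each fell by 1.28-fold to 1.29-fold. These genes were chosen by their likeness to MCAM in the same libraries. Their falls and calls follow from that choice and are no separate result. With the GC offset VEGFA, LAMB3, PLAT and DRAXIN were still called, at -0.31, -0.25, -0.31 and -0.34 log2, and GBX2 was not, at -0.19 (adjusted p = 0.137). Among the members L1CAM was nearest, at 0.0493 log2 and in place 47, followed by NECTIN2 at 0.0759 and BCAM at 0.0853.

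Of 66 other immunoglobulin-family adhesion genes on the list, 45 were tested, of which 2 fell, none rose and 43 were not called, a share near the 2.69% of all genes called lower, with 28 below 0 and a median log2 fold change of -0.06. IGSF8, a partner of tetraspanins, was at 87.3 and 69.7 CPM in the scrambled libraries and at 65.5, 58.9 and 60.7 CPM after H3F3A siRNA (log2 fold change -0.35, adjusted p = 0.033). BOC, a receptor of the Hedgehog pathway that promotes myoblast fusion, was at 13.4 and 14.7 CPM and at 10.5, 11.2 and 10.8 CPM (log2 fold change -0.38, adjusted p = 0.045). With the GC offset IGSF8 was at -0.14 (adjusted p = 0.326) and BOC at -0.27 (adjusted p = 0.223). In that fit none of the 45 was called and the median was 0.0033. The most abundant of these 66 genes per kilobase were BSG, the metalloproteinase inducer basigin, at 482, NECTIN1 at 142 and the nephrin relative KIRREL1 at 44.4 CPM per kilobase. With the longest transcript KIRREL1 was at 17 CPM per kilobase, below NPTN at 36.4, IGSF8 at 33.2 and others. MCAM ranked second of all 76 genes, behind BSG. BSG was at 1044 and 863 CPM in the scrambled libraries and at 863, 794 and 790 CPM after H3F3A siRNA (log2 fold change -0.23, adjusted p = 0.16). NECTIN1 was at -0.13 log2 (adjusted p = 0.419) and KIRREL1 at -0.06 log2 (adjusted p = 0.754), and both were above 0 with the GC offset. Of the endothelial and leukocyte molecules, ICAM1, ICAM2 and VCAM1 had at most 0.0674 CPM on average in either group, while ICAM3 was at 18.5, ICAM4 at 4.49 and ESAM at 1.53 CPM in scrambled libraries, none of them called.

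**Figure D5:**
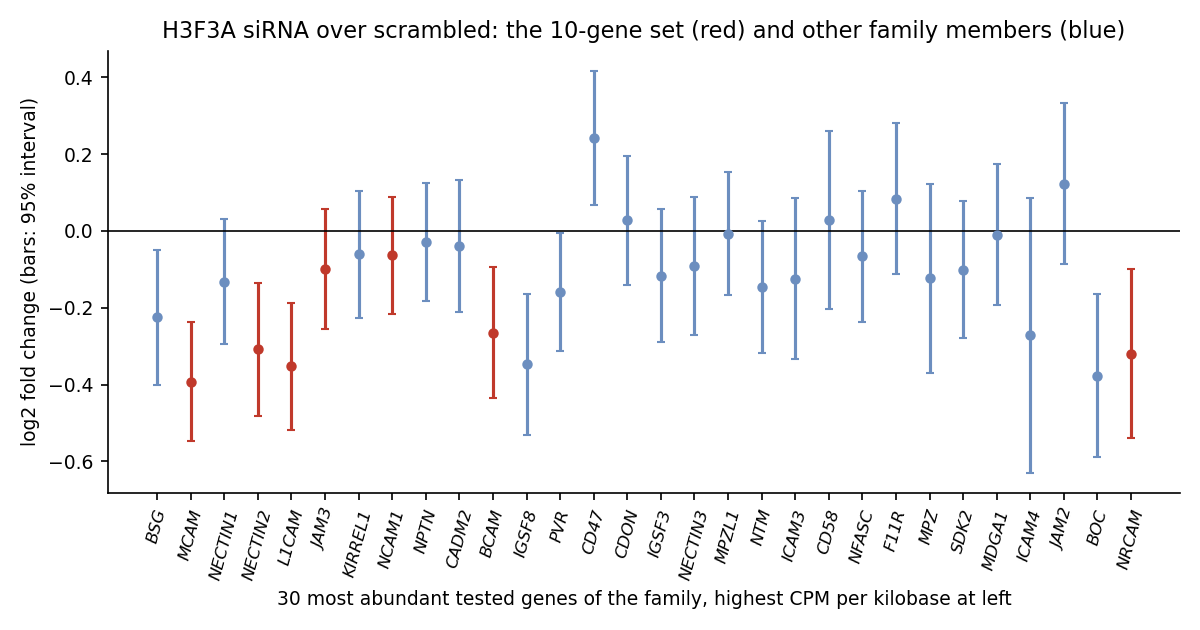
Log2 fold changes with 95% intervals of the 30 most abundant tested genes of the family, ordered by scrambled CPM per kilobase with the highest at the left (red for the 10-gene set, blue for other genes). MCAM, L1CAM, NECTIN2, IGSF8 and BOC were called, all lower, and CD47 had the highest value of these 30.

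Among ligands and partners, 3 of 15 tested genes fell, none rose and 12 were not called, against 2.69% of all genes called lower, with 14 below 0 and a median log2 fold change of -0.12. LAMA5, the laminin alpha 5 chain bound by BCAM and MCAM, was at 314 and 265 CPM in the scrambled libraries and at 185, 243 and 209 CPM after H3F3A siRNA (log2 fold change -0.45, adjusted p = 0.0152). PDGFRB, a receptor kinase reported to partner MCAM in pericytes, went from 44.4 ± 0.131 to 34.7 ± 1.63 CPM (log2 fold change -0.36, adjusted p = 0.0162). PLXNA1, a semaphorin receptor that works with neuropilins and L1-family molecules, went from 441 ± 37 to 348 ± 32.6 CPM (log2 fold change -0.34, adjusted p = 0.0288). With the GC offset LAMA5 was at -0.20 (adjusted p = 0.3), PDGFRB at -0.26 (adjusted p = 0.0522) and PLXNA1 at -0.18 (adjusted p = 0.21), none of them called. ITGB1 was then the 1 gene of the 15 called, at -0.21 (adjusted p = 0.0486), against 1.35% of all genes called lower. LGALS1, ITGB1 and LAMC1, the most abundant of the list per kilobase, had log2 fold changes of -0.10, -0.12 and -0.18 without the offset and were not called. LAMA4, the chain of the laminin best known as an MCAM ligand, was at 1.09 CPM in scrambled libraries, and the receptor KDR and the ALCAM ligand CD6 were near 0 (0 and 0.0168 CPM).

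No gene of the cytoplasmic adaptors or of the enzymes that shed or modify these molecules was called. Over all tested genes 3.2% were called, so lists of this size can hold no call without differing from other genes. Of 28 adaptors 27 were tested, with 13 below 0 and a median log2 fold change of 0.0015. The ezrin-family protein MSN, which links MCAM-type tails to actin, was at -0.04 (adjusted p = 0.816), and CTNNB1 and the PDZ scaffold SDCBP were at 0.08 and 0.14 (adjusted p = 0.618 and 0.337). Of 10 enzymes 9 were tested, with 5 below 0 and a median of -8.1e-05. The sheddases ADAM10 and ADAM17 were at 273 and 47.3 CPM in scrambled libraries with log2 fold changes of 0.0087 and -8.1e-05. The membrane protease MMP14 was at -0.16 log2 (adjusted p = 0.32), the gelatinase MMP2 at 0.04 and the gamma-secretase subunit NCSTN at -0.18 (adjusted p = 0.198). ST8SIA2, which adds polysialic acid to NCAM1, was at 37 CPM and at -0.14 (adjusted p = 0.409). The count of calls for these 2 lists was also 0 with the GC offset, where 1.89% of all tested genes were called.

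Markers of other cell types that carry these molecules summed to at most 11.4 CPM in each library for the endothelial, immune and epithelial lists, and to more for the neural and the fibroblast lists. The summed level of 10 endothelial markers was 9.84 to 10.3 CPM in the scrambled libraries and 9.3 to 9.65 CPM after H3F3A siRNA. KDR and ERG were near 0, and of 5 tested markers none was called. Of 8 immune markers 3 were tested and none was called. The 8 summed to 4.58 to 5.66 CPM in the scrambled libraries and 4.76 to 5.6 CPM after H3F3A siRNA. In each library 7 of the 8 stayed under 1 CPM. Of 10 neural and glial markers 4 were tested and TUBB3 fell (log2 fold change -0.35, adjusted p = 0.0288). With the GC offset TUBB3 was at -0.16 (adjusted p = 0.183). The list's sum was 112 to 140 CPM in the scrambled libraries and 96.2 to 105 CPM after H3F3A siRNA. GFAP, SOX10 and S100B were near 0. Of 10 fibroblast and pericyte markers 6 were tested, and PDGFRB and COL1A1 fell. Over all tested genes 2.69% were called lower. The list's sum was 1250 to 1374 CPM in the scrambled libraries and 1266 to 1327 CPM after H3F3A siRNA. COL3A1 gave most of this at 1189 CPM in scrambled libraries, PDGFRB, COL1A1 and CSPG4 were at 44.4, 39.8 and 34.6 CPM, RGS5 was at 3.7 CPM, and FAP, DCN, LUM, ACTA2 and THY1 were under 1 CPM. COL1A1 was at -0.36 log2 (adjusted p = 0.041) and at -0.20 with the GC offset (adjusted p = 0.211). CSPG4 was at -0.27 (adjusted p = 0.0971), with all H3F3A siRNA libraries below both scrambled ones, as in 17.1% of all tested genes. Of the 6 tested markers 3 were below 0 and 3 above. FAP was at 0.86 (adjusted p = 0.185), with all H3F3A siRNA libraries above both scrambled ones, as in 16% of all tested genes. COL3A1 and RGS5 were at 0.02 and 0.06 and not called. Of 8 epithelial markers 3 were tested and none was called. The 8 summed to 9.46 to 11.4 CPM in the scrambled libraries and 8.82 to 9.72 CPM after H3F3A siRNA. EPCAM and CDH1 were near 0. The part of TUBB3, PDGFRB and COL1A1 in the falls of MCAM, L1CAM and NECTIN2 was not tested.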

How the data were processed

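Poly-A RNA of 5 Rh41 libraries was sequenced after TRIzol extraction and a NEBNext Ultra library kit, per the labels' protocols. The authors deposited raw read counts per gene, with 1 unstranded and 2 stranded columns. The submitters' processing notes name STAR 2.5, HTSeq 0.6.1, DESeq2 and hg19 without roles, so these notes do not say which tool made the counts. The kit does not mark strand, so the unstranded column was taken. Each file opens with 4 summary lines that name no gene; these were dropped, with 25.1% to 26.3% of reads.

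Groups came from sample titles. Counts were tested in R 4.3.3 with edgeR 4.0.16: filterByExpr (minimum count 10, total 15), TMM, robust quasi-likelihood fit without covariates, and Benjamini-Hochberg adjustment over 15859 genes with a threshold of 0.05. Standard errors were derived from fold change and F statistic. Transcript lengths and GC contents came from GENCODE 29, whose build differs from hg19, so they were matched by symbol only. The GC offset was each library's lowess trend (span 0.3) of log2 CPM over GC, and 14250 tested genes had a GC value. Likeness to MCAM used log2 CPM with a prior count of 2. The scripts were tested on simulated data. Promoter sequences came from RefSeq.

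The members, lists and tests were chosen with earlier results of these data known. The named genes were H3F3A, H3F3B, the members, each gene called in the 4 related lists, the 3 most abundant per kilobase in each, and the 5 genes nearest to MCAM; other genes named, among them marker genes, were chosen after their values were seen. Alternatives were other scalings, DESeq2 1.42.0, limma-voom (limma 3.58.1), other filters, leaving out each library, a replicate block, the GC offset and the stranded columns.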

Additional observations from a re-analysis of the deposited data

How the results depend on the processing

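The deposited counts gave 427 lower and 80 higher genes with TMM, and 323 lower and 116 higher with upper-quartile scaling. The total of 507 genes called became 792 without a low-count filter, 300 with the GC offset (214 lower and 86 higher), 292 with the offset on the stranded columns, 1146 with a replicate block and the GC offset, and 78 with the GC offset when scrambled replicate 1 was left out. Leaving out 1 library at a time gave 15 to 2481 genes called, the lowest without H3F3A siRNA replicate 1 and the highest without scrambled replicate 3. It gave 0 to 4 members called, and a log2 fold change of MCAM from -0.45 to -0.33. MCAM was called in 16 of 17 alternatives, with adjusted p up to 0.0848, and at adjusted p = 0.0488 with the GC offset without scrambled replicate 1. Over these 17 alternatives L1CAM was called in 13, NECTIN2 and NRCAM in 6 each, BCAM in 1, and ALCAM, CHL1, NCAM1 and JAM3 in none. With 1 scrambled library left, the lone library is assumed to vary like the other group.

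The replicate block gave 574 genes called, with MCAM at -0.38 (adjusted p = 0.0054), and among the members it lost the call of NECTIN2 (adjusted p = 0.0796) and gained that of NRCAM. The labels do not say that a number marks a shared culture. Deviations from the group means correlated at 0.212 between the libraries numbered 1 and at 0.075 between those numbered 3. Scrambled replicate 3 and H3F3A siRNA replicate 2, with unlike numbers, correlated at 0.191. The deviations of the 2 scrambled libraries mirror each other (-1), so these values cannot show whether equal numbers share a culture.

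Values near 0 changed sign in genes that were not called, and the cause was not tested. H3F3B went from -0.0035 to 0.0195 with upper-quartile scaling, 0.0031 with no filter, 0.0086 with the filter on 1 CPM, 0.0212 with the replicate block, 0.0089 in the stranded sum, and 0.0036 with the GC offset without scrambled replicate 1, and leaving out 1 library at a time gave -0.0356 to 0.0256, above 0 without scrambled replicate 1 and, at 0.0215, without H3F3A siRNA replicate 2. LGALS1 was at 0.0191 with the GC offset, 0.0191 with it on the stranded sum, 0.0653 with block and offset, 0.0508 with the offset without scrambled replicate 1, and -0.21 to 0.0158 when 1 library at a time was left out, above 0 without that replicate alone. KIRREL1 was at 0.0668, 0.0658 and 0.0313 in the first 3 of these settings and -0.0983 to 0.0066 when 1 library at a time was left out, above 0 without H3F3A siRNA replicate 1. NECTIN1 was at 0.0084 with the GC offset and 0.0071 with it on the stranded sum. CHL1 ran from -0.697 to 0.0425 and MMP2 from -0.0211 to 0.0934 when 1 library at a time was left out, both changing sign without scrambled replicate 3. Depth limits CHL1 and CADM1, which had at most 19 counts in a library.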

Other observations

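Reads shared with genes on the opposite strand nearly removed 1 neighbour of a member from the unstranded counts. NCAM1-AS1, an antisense transcript of NCAM1, had 5 and 18 unstranded counts in the scrambled libraries and 18, 9 and 12 after H3F3A siRNA, while the sum of its stranded columns was 613 and 660 and then 565, 513 and 596. The unstranded column thus held 0.816% to 3.19% of the reads that lie on it. NCAPD3, which overlaps JAM3, kept 35.7% to 40.2%, and CBL, which overlaps MCAM, kept 63% to 73.1%. In an unstranded library these reads cannot be divided between the genes of a pair.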
